A study of Mus musculus with 28 samples.

Results

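The 10 genes described here make, inactivate or sense prostaglandins and thromboxane: the cyclooxygenases Ptgs1 and Ptgs2, the terminal synthases Ptges, Ptgis, Ptgds and Tbxas1, the degrading enzyme Hpgd, and the prostaglandin E2 receptors Ptger2, Ptger3 and Ptger4. They were taken by symbol from the pathway, a choice made with earlier results of these data known. All 10 were among the 56980 genes of the bulk RNA sequencing table, and 9 of them, all but Ptgds, were abundant enough to be among the 12673 genes tested. Their counts were followed in mouse jugular veins used to build an arteriovenous fistula (AVF), a vein joined to an artery so that it carries arterial flow. Male and female C57BL/6 mice first underwent subtotal nephrectomy, and in a later operation a jugular vein was joined to the carotid artery. The bulk libraries held 1 vessel each: 7 contralateral veins (5 female, 2 male), 8 early AVFs of day 3 (3 female, 5 male), 5 mid AVFs of day 10 (3 female, 2 male) and 5 late AVFs of day 21 (3 female, 2 male). The days are those of the sample labels, and the paper gives each stage as a mean day with a spread. Single-cell libraries were made from pools of digested vessels of both sexes, 1 library each for contralateral veins, early AVFs and late AVFs. The paper gives later mean days for these early and late pools than for the bulk groups. Early and late therefore do not mark the same days in bulk and single-cell libraries. The contralateral veins came from the operated, nephrectomized mice, so that reduced kidney function was shared by all groups and an unoperated mouse was not among them.

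Prostaglandins are short-lived lipid mediators. Phospholipases release arachidonic acid from membranes, the cyclooxygenases turn it into prostaglandin H2, and terminal synthases convert that intermediate into prostaglandin E2 (Ptges), prostacyclin (Ptgis), prostaglandin D2 (Ptgds) or thromboxane A2 (Tbxas1). Ptgs1 is the constitutive cyclooxygenase of platelets and resting endothelium, and Ptgs2 is the form induced by cytokines, growth factors and injury. In blood vessels prostacyclin relaxes smooth muscle and restrains platelets, while thromboxane constricts and activates platelets. Hpgd starts the breakdown of prostaglandins, and the receptors Ptger2 and Ptger4 raise cyclic AMP whereas Ptger3 mainly lowers it.

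The promoters of 3 members are shown first, because in the bulk libraries the 2 cyclooxygenases lay on different sides of the vein level while Ptgs1 and Hpgd lay on the same side. RefSeq promoter sequences were on hand for 9 of the 10 genes, all but Ptgis. Each run below covers 250 bases before to 30 bases after the annotated start in GRCm38.p6, reads 5′ to 3′ on the strand of the gene, and has in capitals the matches to 5 motifs that were searched on both strands. The cyclic AMP response element was searched by its core CGTCA. The E box was spelled CACGTG. The TATA box was spelled TATAAA. The AP-1 site was spelled TGANTCA. The GC box was spelled GGGCGG. Ptgs2 lies at chr1:150099781-150100060 on the plus strand, Ptgs1 at chr2:36230176-36230455 on the plus strand and Hpgd at chr8:56294302-56294581 on the plus strand.
Ptgs2: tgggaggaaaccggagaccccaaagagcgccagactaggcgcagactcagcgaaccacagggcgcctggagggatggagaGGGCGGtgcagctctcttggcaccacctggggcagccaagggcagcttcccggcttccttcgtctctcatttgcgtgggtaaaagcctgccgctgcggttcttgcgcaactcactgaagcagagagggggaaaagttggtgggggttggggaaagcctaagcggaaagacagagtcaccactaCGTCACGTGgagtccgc
Ptgs1: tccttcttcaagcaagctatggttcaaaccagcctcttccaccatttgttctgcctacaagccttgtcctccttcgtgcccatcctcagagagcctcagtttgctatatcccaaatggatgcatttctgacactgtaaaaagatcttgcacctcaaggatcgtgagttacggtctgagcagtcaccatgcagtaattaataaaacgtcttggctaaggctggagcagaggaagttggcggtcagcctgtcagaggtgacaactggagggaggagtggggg
Hpgd: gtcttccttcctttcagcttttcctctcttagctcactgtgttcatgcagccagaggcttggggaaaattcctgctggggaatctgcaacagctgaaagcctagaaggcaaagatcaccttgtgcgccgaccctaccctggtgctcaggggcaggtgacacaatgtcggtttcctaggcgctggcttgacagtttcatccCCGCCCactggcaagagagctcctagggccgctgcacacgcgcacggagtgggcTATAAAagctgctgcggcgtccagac
The Ptgs2 window held 1 CGTCA that overlapped 1 CACGTG, starting 14 and 17 bases into the transcript, and 1 GGGCGG that began 170 bases before the start. The Ptgs1 window held none of the 5 motifs. The Hpgd window held 1 TATAAA at base 5 after the RefSeq start, which is 29 bases before the start that GENCODE gives, and 1 GGGCGG on the other strand. Among the windows of 32851 genes, 19.9% held CGTCA, 6.79% CACGTG, 13.1% TATAAA, 7.46% TGANTCA and 34.7% GGGCGG. The Ptgs2 window was 61.4% G and C with 16 CpG pairs, that of Ptgs1 49.6% with 5 and that of Hpgd 57.1% with 11, beside a median of 52.5% and 6 over all windows. These matches describe the letters of the windows and are no measure of binding.

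The bulk libraries held 20254173 to 67457501 counts. The contralateral veins were less complex than the AVFs: 2.86% to 22.5% of the tested genes had no count in a vein, against 0.0789% to 0.3% in the mid and late AVFs and 0.11% to 4.7% in the early AVFs. Veins 28, 31, 34 and 632 had more than 10% of the tested genes at 0, and early AVFs 5 and 6 more than 1%. Male veins 632 and 633 also carried numbers of another series than the 5 female veins, so that sex and number series cannot be told apart among the veins. What these numbers stand for is not given by the labels. Levels are given as CPM, the counts of a gene scaled to a common library size over the tested genes with TMM factors. A gene was called when the adjusted p of edgeR's quasi-likelihood test was under 0.01 and the log2 fold change at least 1 in size.

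In early AVFs, Ptgis was higher and Ptgs1 and Hpgd were lower than in contralateral veins, so that 3 of the 9 members tested were called where 12.6% of all genes tested were. That was 1 member higher, against 6.17% of all genes, and 2 lower, against 6.45%. In mid as in late AVFs 2 members were called, Ptgis higher and Ptgs1 lower. Of all genes 6.05% were called in mid AVFs, 2.74% higher and 3.31% lower, and 5.33% in late AVFs, 2.49% higher and 2.85% lower. No member was called between any pair of AVF stages. There the calls over all genes were 0.00789% for mid against early, 3.01% for late against early and 0% for late against mid, and the members with an unadjusted p under 0.05 numbered 0, 1 and 0. The members' differences ran from -0.69 (Ptger2) to 0.60 (Ptges) for mid against early, from -0.85 (Ptger2) to 1.24 (Hpgd) for late against early, and from -0.43 (Ptgs2) to 1.13 (Ptger3) for late against mid AVFs. For the stages in order of time, the members' median log2 fold change against the vein was 0.70, 0.48 and 0.32, beside -0.0067, -0.10 and -0.093 over all genes tested. The 3 comparisons with the vein share the same 7 control libraries, so that they are not separate evidence.

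**Figure D1:**
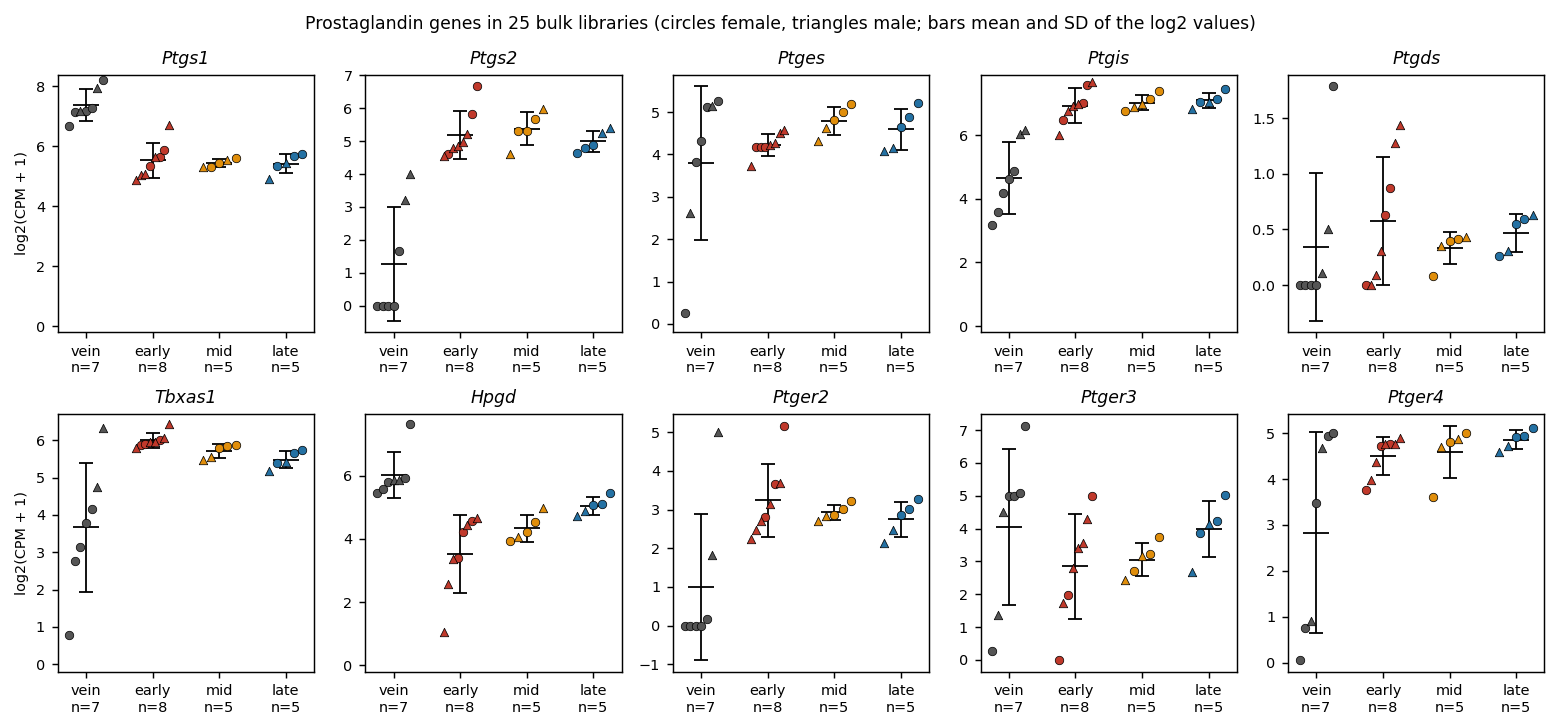
Level of each of the 10 genes in the 25 bulk libraries as log2(CPM + 1), by group, with female libraries as circles, male libraries as triangles, and the mean and SD of the log2 values as bars. Every AVF lay above every contralateral vein in Ptgs2 and below every vein in Hpgd, and on this scale the veins spread most in Ptger3, Ptger4 and Ptger2.

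Ptgs1, the constitutive cyclooxygenase (chromosome 2, 36230426 to 36252272, plus strand, GRCm38), was at 101 CPM in the lowest, 145 in the median and 299 in the highest of the 7 contralateral veins. The early AVFs ran from 28.5 through a median of 44.4 to 104 CPM. Mid AVFs 9, 12, 13, 14 and 15 had 38.4, 45.8, 48.5, 38.5 and 42.5 CPM, and late AVFs 16, 17, 19, 23 and 24 had 52.1, 49.95, 39.9, 29.1 and 43.0 CPM. All mid and late AVFs were below all veins, as were 4.69% and 4.25% of the tested genes, and among the early AVFs early 5 alone reached into the range of the veins, above vein 27. Ptgs1 fell by 1.84 on the log2 scale in early AVFs (SE 0.28, adjusted p = 1.79e-05). It fell by 2.04 at the mid stage (SE 0.33, adjusted p = 0.000119) and by 2.04 at the late stage (SE 0.33, adjusted p = 0.000159). The late against mid difference was 0.0039 (SE 0.33). In bulk tissue, fewer cells of a type and less RNA per cell cannot be told apart. Beside this result, the summed level of 10 endothelial markers ran from 2906 to 4591 CPM in veins and from 380 to 738 CPM in early AVFs, with 7 of the 10 called lower, and that of 10 smooth muscle markers from 9890 to 21520 and from 1124 to 2743 CPM, with 7 of the 10 called lower. No marker of either list was at 0 throughout a group, and their part in the Ptgs1 result was not tested in the bulk libraries.

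Without veins 28, 31, 34 and 632 the Ptgs1 fold change in early AVFs was -1.36 (adjusted p = 0.00106), and without early AVFs 5 and 6 it was -2.15 (adjusted p = 1.4e-06). Within female libraries it was -1.71 (adjusted p = 0.0187) and within male libraries -2.03 (adjusted p = 0.0148); neither passed the threshold. The mid and late calls were also lost within each sex, at -1.92 (adjusted p = 0.0142) and -1.77 (adjusted p = 0.022) in female and -2.28 (adjusted p = 0.0647) and -2.54 (adjusted p = 0.0498) in male libraries. Early 5, the early AVF with the highest Ptgs1, also had a summed level of 9463 CPM over 8 platelet markers, against 401 to 12760 CPM over the early AVFs.

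Ptgs2, the inducible cyclooxygenase (chromosome 1, 150100031 to 150108227, plus strand), had no count in veins 28, 31, 34 and 35 and reached 2.18 CPM in vein 27, 8.21 in vein 633 and 15.0 in vein 632. The early AVFs ran from 22.3 through a median of 29.3 to 101 CPM, the highest being early 7. Mid AVFs 9, 12, 13, 14 and 15 had 23.6, 61.6, 49.7, 38.8 and 38.9 CPM, and late AVFs 16, 17, 19, 23 and 24 had 24.0, 28.3, 26.9, 37.2 and 40.9 CPM. Every AVF of every stage therefore lay above every vein, a separation that 6.82% of the tested genes had in either direction at the early, 12% at the mid and 10.5% at the late stage, and that 4.47%, 7.32% and 6.25% had with the AVFs on the higher side. The fitted log2 difference was 3.47 at the early stage (SE 1.06, adjusted p = 0.0183), 3.55 at the mid stage (SE 1.12, adjusted p = 0.0359) and 3.11 at the late stage (SE 1.10, adjusted p = 0.0657), none of which passed the threshold. Without vein 632 the early difference was 4.53 with an adjusted p of 0.00389 and the mid difference 4.61 with 0.00785, and both were then called. The veins differed here too, the 5 female ones reaching at most 2.18 CPM and the 2 male ones 8.21 and 15.0 CPM. Within female libraries the Ptgs2 difference was 7.11 early (adjusted p = 0.022) and 6.59 mid (adjusted p = 0.0375). These sizes rest on the 55 counts of vein 27, since the other female veins had none. Within male libraries it was 1.26 (adjusted p = 0.0697) and 1.81 (adjusted p = 0.0665). The difference between the sexes in the early comparison was -5.77 (SE 1.66, male minus female, adjusted p = 0.178). With all libraries, Ptgs2 showed the largest fitted difference from the vein at each stage among the members tested. Its mean of 3.63 CPM in the veins came from veins 27, 632 and 633 alone. Without vein 632 the early difference of Ptger2 was slightly larger, at 4.59, and within female libraries Ptger2 differed more at each stage.

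Ptgis, prostacyclin synthase (chromosome 2, 167191805 to 167240604, minus strand), was at 8.03 CPM in the lowest, 23.7 in the median and 70.0 in the highest vein. The early AVFs ran from 63.8 through 123 to 205 CPM. Mid AVFs 9, 12, 13, 14 and 15 had 125, 117, 167, 139 and 107 CPM, and late AVFs 16, 17, 19, 23 and 24 had 130, 176, 139, 131 and 111 CPM. Ptgis rose by 2.01 on the log2 scale at the early stage (SE 0.38, adjusted p = 0.00027), by 2.04 at the mid stage (SE 0.40, adjusted p = 0.00103) and by 2.11 at the late stage (SE 0.40, adjusted p = 0.000931). The 3 stages were within 0.10 of each other. The female and male veins stood apart for this gene: the 5 female veins lay between 8.03 and 28.3 CPM and the 2 male veins at 64.4 and 70.0 CPM. Within female libraries the early difference was 2.99 (adjusted p = 0.0013), and within male libraries it was 0.86 (adjusted p = 0.136). The mid and late differences were 2.99 (adjusted p = 0.00205) and 3.11 (adjusted p = 0.00209) within female and 0.79 (adjusted p = 0.311) and 0.76 (adjusted p = 0.338) within male libraries. The difference between the sexes, -2.04 (SE 0.57, male minus female), had an adjusted p of 0.159 over all genes.

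Tbxas1, thromboxane A synthase (chromosome 6, 38875404 to 39084585, plus strand), spread widely over the veins, from 0.712 CPM in vein 27 through a median of 12.9 to 79.2 CPM in vein 632. The early AVFs were close together at 54.1 to 84.8 CPM with a median of 60.8, the mid AVFs lay at 43.1 to 57.1 CPM and the late AVFs at 35.3 to 52.3 CPM. Vein 632 thus lay inside the range of the early AVFs, and the other 6 veins reached at most 25.7 CPM, below every AVF. The difference was 1.57 at the early stage (SE 0.52, adjusted p = 0.0279), 1.27 at the mid stage (SE 0.56, adjusted p = 0.145) and 1.05 at the late stage (SE 0.56, adjusted p = 0.251). Without vein 632 it was 2.45 (adjusted p = 0.000231), 2.15 (adjusted p = 0.00255) and 1.92 (adjusted p = 0.00659), all called. Within female libraries the early Tbxas1 difference was 2.83 (adjusted p = 0.0248). Within male libraries it was 0.26 (adjusted p = 0.654), and the mid and late values were -0.31 and -0.55. The difference between the sexes in the early comparison was -2.45 (SE 0.83, male minus female, adjusted p = 0.305). All late AVFs were below all early AVFs, as 8.39% of the tested genes were (15.5% were apart in either direction), yet the difference of -0.52 (SE 0.56, adjusted p = 0.849) was within the error. The summed level of 10 monocyte and macrophage markers ran from 766 to 2364 CPM in veins, and in early, mid and late AVFs from 3087 to 10590, 2606 to 3510 and 2089 to 3875 CPM, and 8 of the 10 markers were called higher in early AVFs. Their part in the Tbxas1 values was not tested in the bulk libraries.

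Ptges, the inducible synthase of prostaglandin E2 (chromosome 2, 30889471 to 30929863, minus strand), was not called against the vein at any stage. The veins ran from 0.187 CPM in vein 28 through a median of 18.9 to 37.5 CPM, the early AVFs from 12.2 to 22.8, the mid AVFs from 18.9 to 35.6 and the late AVFs from 15.9 to 36.2 CPM. The differences were -0.18 (SE 0.54, adjusted p = 0.851), 0.41 (SE 0.61, adjusted p = 0.734) and 0.24 (SE 0.61, adjusted p = 0.85). Without the 4 veins of most genes at 0 the early difference was -0.73 (adjusted p = 0.0423), not past the threshold of 0.01. Ptgds, which makes prostaglandin D2 in brain and other tissues (chromosome 2, 25466709 to 25470046, minus strand), reached at most 2.45 CPM in any library, had no count in 4 of the 7 veins and 2 of the 8 early AVFs, and was left out of the test for its low counts. Its mean level was 0.421 CPM in veins and 0.603, 0.265 and 0.391 CPM in early, mid and late AVFs, with overlap between all groups.

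Hpgd, which oxidizes prostaglandins to inactive products (chromosome 8, 56294585 to 56321043, plus strand), was at 42.7 CPM in the lowest, 56.6 in the median and 197 in the highest vein, which was vein 28. Early AVFs 1, 2, 3, 4, 5, 6, 7 and 10 had 20.6, 9.32, 4.91, 24.4, 1.10, 9.47, 17.5 and 22.8 CPM. Mid AVFs 9, 12, 13, 14 and 15 had 30.7, 15.5, 14.1, 22.1 and 17.7 CPM, and late AVFs 16, 17, 19, 23 and 24 had 32.7, 33.3, 42.6, 25.2 and 28.5 CPM. All AVFs lay below all veins, as 2.34%, 4.69% and 4.25% of the tested genes did at the 3 stages, with late 19 at 42.6 CPM next to the lowest vein at 42.7 CPM, and all late AVFs lay above all early AVFs. Hpgd fell by 2.42 on the log2 scale in early AVFs (SE 0.47, adjusted p = 0.000463). Within female libraries the early difference was -2.20 (adjusted p = 0.0524) and within male libraries -2.27 (adjusted p = 0.0824), and neither passed the threshold. The mid difference was -1.88 (SE 0.55, adjusted p = 0.0243) and the late one -1.18 (SE 0.54, adjusted p = 0.165), and neither was called. Late against early AVFs gave 1.24 (SE 0.50), with an unadjusted p of 0.0189 and an adjusted p of 0.163, and 7.16% of the tested genes were higher in every late than in every early AVF. Without vein 28 the early difference was -1.93 (adjusted p = 0.00144) and the late difference -0.69 (adjusted p = 0.376).

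**Figure D2:**
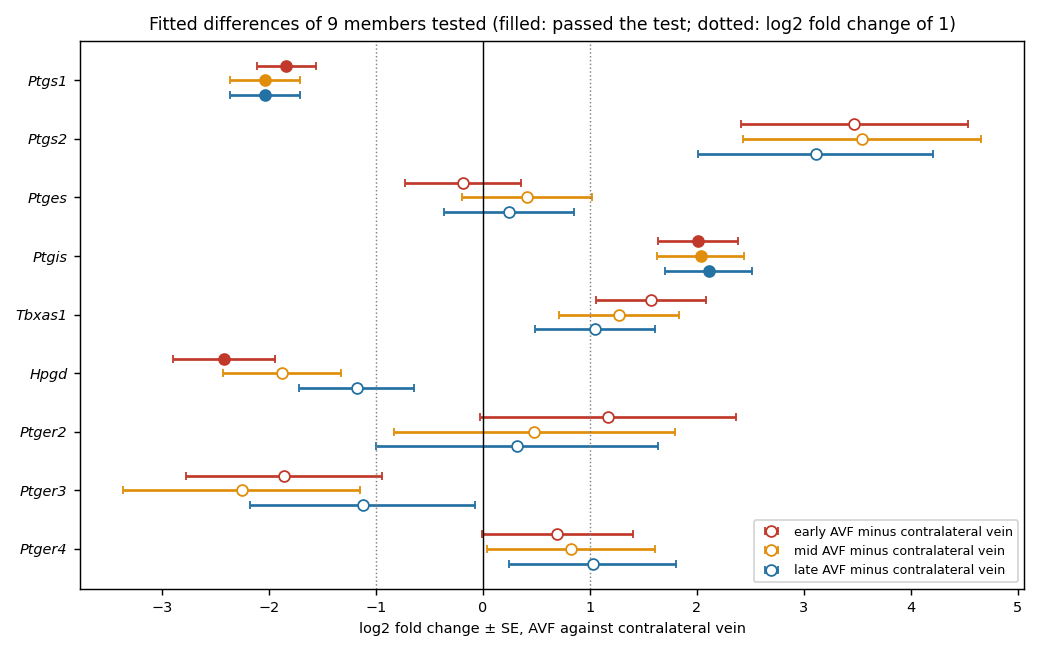
Fitted log2 fold change with its SE for the 9 members tested, in early, mid and late AVFs against contralateral veins, with filled points for those that passed the test. Ptgs1 lay near -2 and Ptgis near 2 at all 3 stages, while Hpgd moved from -2.42 in early to -1.18 in late AVFs.

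With all libraries the receptors gave no call. Ptger2 (chromosome 14, 44988195 to 45003820, plus strand) had no count in 4 of the 5 female veins and 0.119 CPM in the fifth, against 2.52 CPM in vein 633 and 30.9 CPM in vein 632. The early AVFs ran from 3.70 through 6.98 to 35.1 CPM, the mid AVFs from 5.58 to 8.39 and the late AVFs from 3.39 to 8.59 CPM. With all veins the early difference was 1.17 (SE 1.20, adjusted p = 0.533), and without vein 632 it was 4.59 (adjusted p = 0.00552), which was called. The mid and late differences were 0.48 (SE 1.32, adjusted p = 0.872) and 0.32 (SE 1.32, adjusted p = 0.915), and without vein 632 they were 3.90 (adjusted p = 0.0271) and 3.74 (adjusted p = 0.0342), neither called. The male and female differences of early AVFs from veins differed by -10.54 (SE 1.57, male minus female, adjusted p = 0.00311), as did those of 0.45% of the tested genes at an adjusted p under 0.05. Within female libraries Ptger2 was called at each stage, with differences of 9.28 (adjusted p = 0.00239), 7.97 (adjusted p = 0.00665) and 8.004 (adjusted p = 0.00676), where 2.9%, 1.78% and 1.61% of the tested genes were called. Such sizes rest on the 3 counts of vein 27, since the other female veins had none. Ptger4 (chromosome 15, 5206661 to 5244187, minus strand) ran from 0.0453 through 10.1 to 31.2 CPM in veins while the early, mid and late AVFs ran from 12.5 to 28.9, 11.1 to 31.1 and 23.2 to 33.7 CPM, with overlap at each stage and differences of 0.70 (SE 0.71), 0.82 (SE 0.78) and 1.03 (SE 0.78). The veins with high Ptger4 were 27, 35 and 633, those with the fewest tested genes at 0, and without the 4 less complex veins the early difference was -0.32 (adjusted p = 0.388). Ptger3 (chromosome 3, 157566892 to 157645888, plus strand) ran from 0.21 through 31.1 to 140 CPM in veins, with vein 28 highest, and from 0 through 7.76 to 31.1 CPM in early AVFs. Its differences of -1.86 (SE 0.92), -2.26 (SE 1.11) and -1.12 (SE 1.05) had adjusted p of 0.153, 0.199 and 0.56. Without vein 28 they were -0.94, -1.34 and -0.20 (adjusted p = 0.477, 0.431 and 0.926).

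Levels of different genes were compared as mean CPM per kilobase of annotated exon. In contralateral veins Ptgs1 stood at 45.2 ± 18.0 (SD, n = 7) and Hpgd at 43.7 ± 32.4, which did not differ beyond their spread. Ptgis followed at 12.4 ± 9.81, Ptger3 at 6.49 ± 8.33 and Ptges at 5.20 ± 3.83, and Tbxas1, Ptger4, Ptger2, Ptgs2 and Ptgds were at 2.34, 2.08, 0.923, 0.792 and 0.255. In early AVFs Ptgis led at 24.9 to 79.7 (n = 8), before Ptgs1 at 12.6 ± 6.27, Ptgs2 at 8.82 ± 5.81, Hpgd at 8.17 ± 5.17, Tbxas1 at 6.96 ± 1.03 and Ptges at 4.57 ± 0.827. In late AVFs Ptgis stood at 53.6 ± 9.26 (SD, n = 5), Hpgd at 19.3 ± 3.89, Ptgs1 at 7.48 to 13.4 and Ptgs2 at 6.87 ± 1.57. The ranges of Ptgis and Ptgs1 did not overlap in any AVF stage except early, where the lowest Ptgis was 24.9 and the highest Ptgs1 26.8. The strand setting of the bulk counting is not given in the sources used here, and Ptgs1, Ptgis, Tbxas1, Ptger2 and Ptger4 share 148, 156, 144, up to 246 and up to 1015 exonic bases with a gene on the other strand, whose reads could not be told apart without strand.

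Around these enzymes, 37 other genes of eicosanoid release, synthesis, transport and sensing were listed, of which 27 were tested. One was called higher in early AVFs, Alox5ap, which presents arachidonic acid to 5-lipoxygenase for leukotriene synthesis. It was at 10.1 to 48.6 CPM in veins and 68.3 to 386 CPM in early AVFs, a difference of 2.73 (SE 0.39, adjusted p = 8.24e-06), and was lower again in late than in early AVFs at 32.9 to 45.7 CPM (difference -2.19, SE 0.43, adjusted p = 0.00356). One was called lower in mid AVFs, Pla2g2d, a secreted phospholipase of resident immune cells, with 18.4 to 202 CPM in veins and 0.273 to 1.32 CPM in mid AVFs (difference -6.43, SE 1.62, adjusted p = 0.00859). None of the 27 tested was called in late AVFs against veins. Of all tested genes, 6.17% were called higher in early AVFs, 3.31% lower in mid AVFs and 5.33% in either direction in late AVFs. The median log2 fold change of the 27 was -0.052 at the early, -0.26 at the mid and -0.15 at the late stage. By branch, the medians in early AVFs were -0.92 for arachidonate release (4 tested), 0.11 for other synthases (8 tested), -0.14 for transport and inactivation (5 tested), -1.44 for other receptors (3 tested) and 1.37 for the leukotriene branch (7 tested).

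The genes most like each member over the 25 bulk libraries were ranked by Pearson's r of log2 CPM, as a description that mixes differences between groups with the missing counts of the veins. Ptgs1 was most like Myl9, Pgm5 and Cd59a (r = 0.923, 0.921 and 0.918), the first a contractile light chain and the second a protein of smooth muscle adhesion sites. None of these 3 genes was among the 3 most like Ptgs1 by Spearman's rho. Hpgd was most like Parm1, Art4 and Susd2 (0.918, 0.902 and 0.894). Ptgs2 was most like Atg4d, B4galnt1 and Zbtb37 (0.970, 0.969 and 0.965), Ptgis like B4galnt1, Snx29 and Ptgs2 itself (0.940, 0.933 and 0.929), and Ptger2 like Dll4, B4galnt1 and Cep76 (0.951 for the first). Tbxas1 was most like Ptprj, Ifnar1 and Gm45223 (0.936, 0.915 and 0.890), Ptges like Cyth1, Farsa and Tsc2 (0.962, 0.956 and 0.956), Ptger3 like Ubr1, Car11 and Ric8b (0.851, 0.835 and 0.835) and Ptger4 like Galnt10, Rev1 and Pla2g15 (0.963 for the first). Among the members themselves, r was 0.929 for Ptgs2 with Ptgis, 0.932 for Ptgs2 with Ptger2 and -0.736 for Ptgs1 with Ptgs2.

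The single-cell libraries showed which cells held these transcripts. After filtering, 6319 cells of contralateral veins, 4753 of early AVFs and 5821 of late AVFs were kept of 26438 barcodes, with median depths of 2751, 8951 and 15425 unique molecular identifiers (UMIs, each marking 1 captured transcript). At most 35 barcodes of a library also occurred in another library. Cells were clustered without the members, their pathway genes and the lineage markers, and lineages were named from those markers, so that all names are rebuilt and approximate. Mono/macro-like cells made up 12.1%, 42.4% and 28.2% of the cells of veins, early and late AVFs, fibroblast-like cells 29.6%, 8.69% and 34.1%, endothelial-like cells 12.4%, 1.54% and 1.53%, and smooth muscle-like cells 0.665%, 5.81% and 9.67%. A cluster led by the parathyroid genes Pth and Chga stayed unnamed and held 26 cells of veins, 599 of early and 387 of late AVFs. The titles of the 3 libraries carry different date-like strings, and that of late AVFs also the word Dilution, so that differences between preparations and between groups cannot be told apart. With 1 library in each group there was no test, and the 95% intervals below cover counting error only. Levels are CPM of the summed UMIs of a lineage in a library, for lineages with at least 50 cells there.

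Ptgs1 transcripts of the vein library lay mainly in endothelial-like cells. These 785 cells held 63.9% of the library's Ptgs1 UMIs at 435 CPM (411 to 459), and platelet-like cells stood at 303 CPM (256 to 355). In endothelial-like cells of early AVFs the level was 45.1 CPM (30.7 to 64.1) from 31 UMIs in 73 cells, and in those of late AVFs 51.6 CPM (34.0 to 75.0) from 27 UMIs in 89 cells. The ratio of early AVFs to veins within this lineage was 0.104 (0.0703 to 0.148) and that of late AVFs to veins 0.119 (0.0779 to 0.173). So the level within endothelial-like cells was lower in the AVF libraries, beside their smaller share of cells. Platelet-like cells kept 295 CPM (227 to 376) in early and 236 CPM (135 to 384) in late AVFs, intervals that overlap that of the vein library. The cluster of endothelial-like cells was led by Ccl21a, a lymphatic endothelial gene, beside Vwf and Ptprb. In veins, Ptgs1 was at 406 CPM (372 to 442) in the 253 of these cells with a UMI of Prox1, Mmrn1, Flt4 or Reln and at 458 CPM (425 to 492) in the 532 without. In early AVFs the corresponding levels were 24.1 CPM, from 9 UMIs in 25 cells, and 70.2 CPM (44.0 to 106), and in late AVFs 51.1 (29.8 to 81.9) and 52.3 CPM (25.1 to 96.2).

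Ptgs1 was also lower in the AVF libraries in 2 further clusters that all 3 libraries filled. In mono/macro-like cluster 2, led by Lyz2 and complement C1q genes, it was at 55.6 CPM (39.7 to 75.7) in veins, 20.6 (18.1 to 23.4) in early and 23.8 CPM (21.1 to 26.8) in late AVFs. This cluster held 84 of the 766 mono/macro-like cells of veins, against 850 cells of early and 917 of late AVFs. In fibroblast-like cluster 0, led by Col3a1 and Ptx3, it was at 51.8 (40.8 to 64.8), 13.7 (11.6 to 16.0) and 18.4 CPM (17.2 to 19.6), from 106 of the 1871 fibroblast-like cells of veins. Over all fibroblast-like cells the levels were closer, at 22.3, 13.7 and 18.7 CPM, with ratios to veins of 0.612 (0.501 to 0.745) in early and 0.836 (0.732 to 0.957) in late AVFs, against 0.264 (0.2 to 0.352) and 0.355 (0.281 to 0.455) in cluster 0. Smooth muscle-like cells were at 0.972 CPM (0.316 to 2.27) in early and 3.65 CPM (2.68 to 4.85) in late AVFs. The vein library had 42 of them, too few to give a value.

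**Figure D3:**
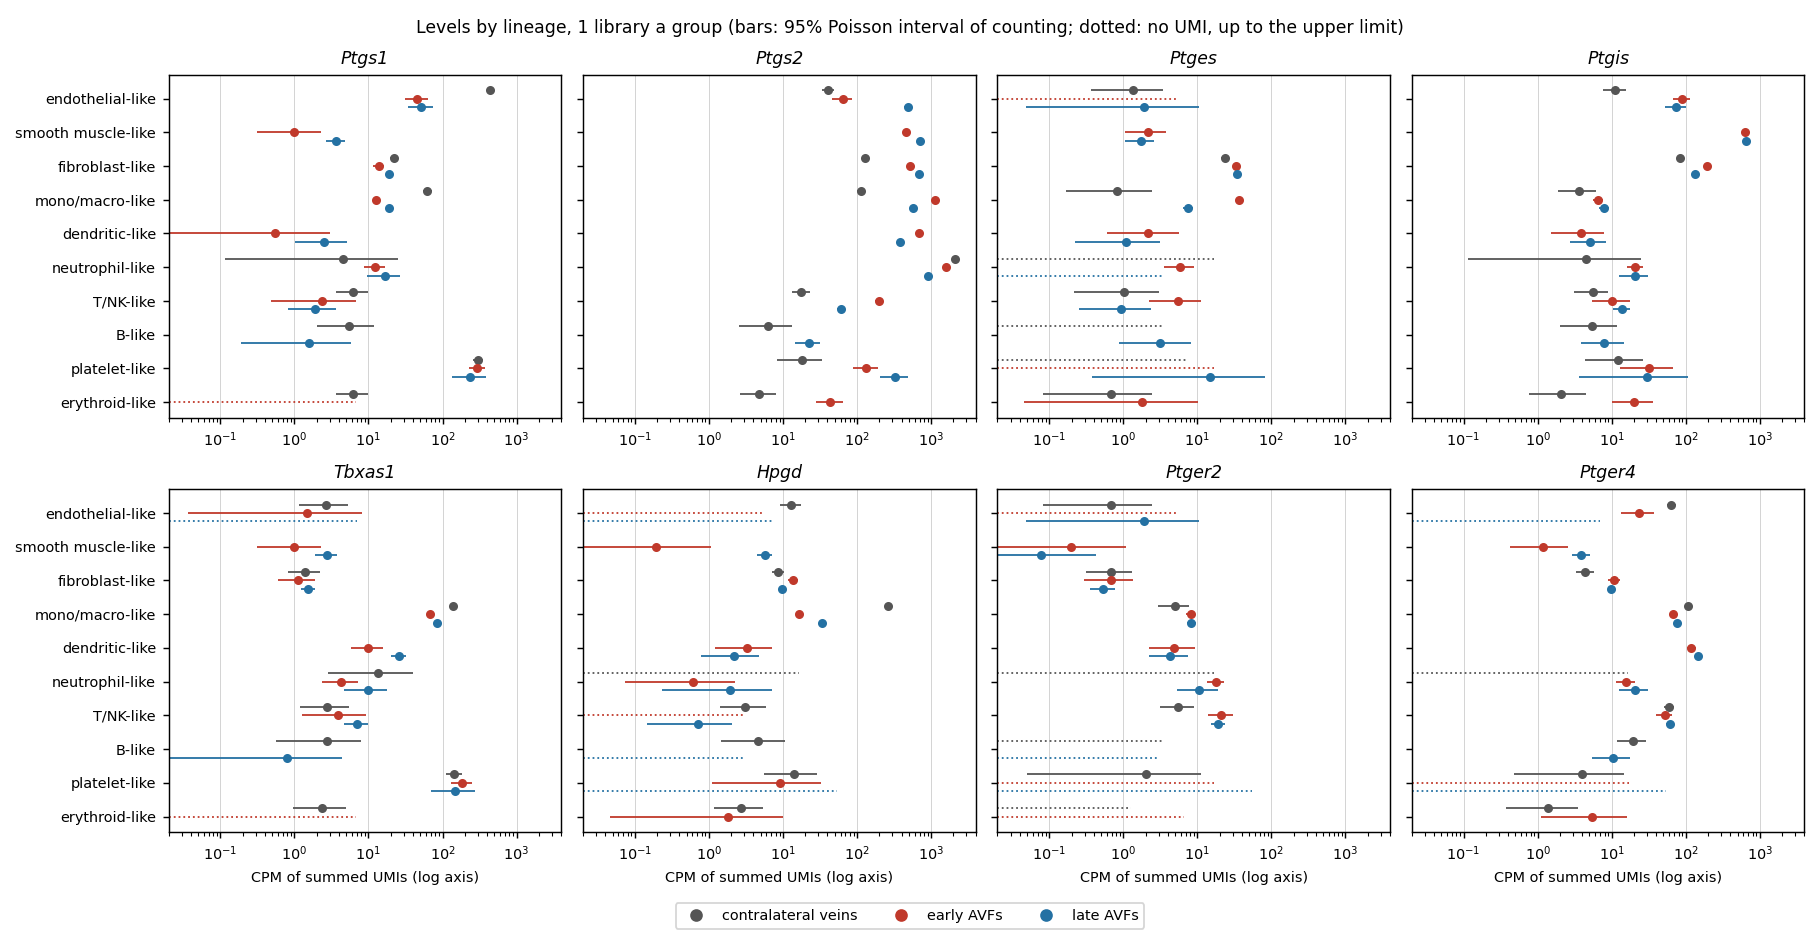
Level of 8 members in 10 lineages of the 3 single-cell libraries, as CPM of summed UMIs on a log axis with 95% Poisson intervals, dotted where no UMI was found. Ptgs1 stood highest in endothelial-like cells of veins and in platelet-like cells of all 3 libraries, Ptgis in fibroblast-like cells of veins and smooth muscle-like cells of both AVF libraries (veins had too few of the latter to give a value), Tbxas1 in platelet-like and mono/macro-like cells, and Hpgd in mono/macro-like cells of veins.

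Ptgs2 was spread over more lineages. Its level was highest in neutrophil-like cells of each library, at 2090 CPM (1900 to 2290) in veins, 1590 (1540 to 1630) in early and 924 CPM (866 to 985) in late AVFs. In mono/macro-like cells it was 112 (101 to 123), 1150 (1140 to 1170) and 570 CPM (560 to 579), and in fibroblast-like cells 128 (122 to 135), 524 (511 to 537) and 680 CPM (673 to 687). Mono/macro-like cells held 67.9% of the Ptgs2 UMIs of early AVFs, and fibroblast-like cells 57.1% of those of late AVFs. Smooth muscle-like cells stood at 454 CPM (436 to 473) in early and 720 CPM (705 to 734) in late AVFs. Endothelial-like cells went from 41.0 CPM (34.1 to 49.0) in veins and 64.1 (46.5 to 86.0) in early to 487 CPM (429 to 551) in late AVFs. Of the 255 UMIs behind the late value, 240 came from the 38 cells without a lymphatic marker UMI, at 1260 CPM (1100 to 1420), against 16.0 CPM (10.4 to 23.4) in such cells of veins. The 51 late cells with one stood at 45.1 CPM (25.3 to 74.4), against 72.0 CPM (58.2 to 88.0) in such cells of veins. Only 23 of the 89 late endothelial-like cells had any Ptgs2 UMI, and the 38 cells had a median depth of 1436.5 UMIs. The late value thus rests on few cells, and its interval does not cover the spread between cells.

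The clusters behind these lineages differed between libraries. Of the 766 mono/macro-like cells of veins, 671 belonged to cluster 10, led by Cd163, F13a1 and Mrc1, where Ptgs2 was at 33.6 CPM (27.2 to 41.1). In early AVFs 1140 of 2016 belonged to cluster 1, led by Il1b, Lyz2 and Cd14, where it was at 1790 CPM (1770 to 1810), and in late AVFs the same cluster was at 962 CPM (945 to 980). In cluster 2, which held 84 cells of veins, Ptgs2 was lower in the AVFs, with 398 (353 to 446), 293 (283 to 302) and 187 CPM (179 to 195). In fibroblast-like cells, cluster 3 held 1765 of the 1871 cells of veins, at 88.0 CPM (82.7 to 93.6), whereas cluster 0 held the AVF cells and had 444 (411 to 480), 525 (512 to 538) and 686 CPM (679 to 693) in veins, early and late AVFs. Within cluster 0 the ratio of early AVFs to veins was 1.18 (1.09 to 1.28), against the step from 128 to 524 CPM over all fibroblast-like cells.

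The share of cells with a Ptgs2 UMI was 65.7% of mono/macro-like cells in early AVFs at a median depth of 13072 UMIs, and 6.4% in veins at 2905.5. Thinned to 1000 UMIs a cell, which left out 12 and 128 cells, the shares were 32.5% and 2.98%. Erythroid-like cells, which should lack the gene, had it in 20.8% of cells in early AVFs (median 5424 UMIs, 43.5 CPM) and 1.55% in veins (median 2725 UMIs, 4.78 CPM). The values of B-like and erythroid-like cells were therefore not read as expression. Over all cells Ptgs2 stood at 95.4 CPM (91.9 to 99.0) in veins, 882 (874 to 890) in early and 611 CPM (606 to 615) in late AVFs. The bulk means were 3.63, 40.4 and 31.5 CPM, a unit of another assay. Single cells were released by enzymatic digestion, and the part of that step in the Ptgs2 values was not tested.

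**Figure D4:**
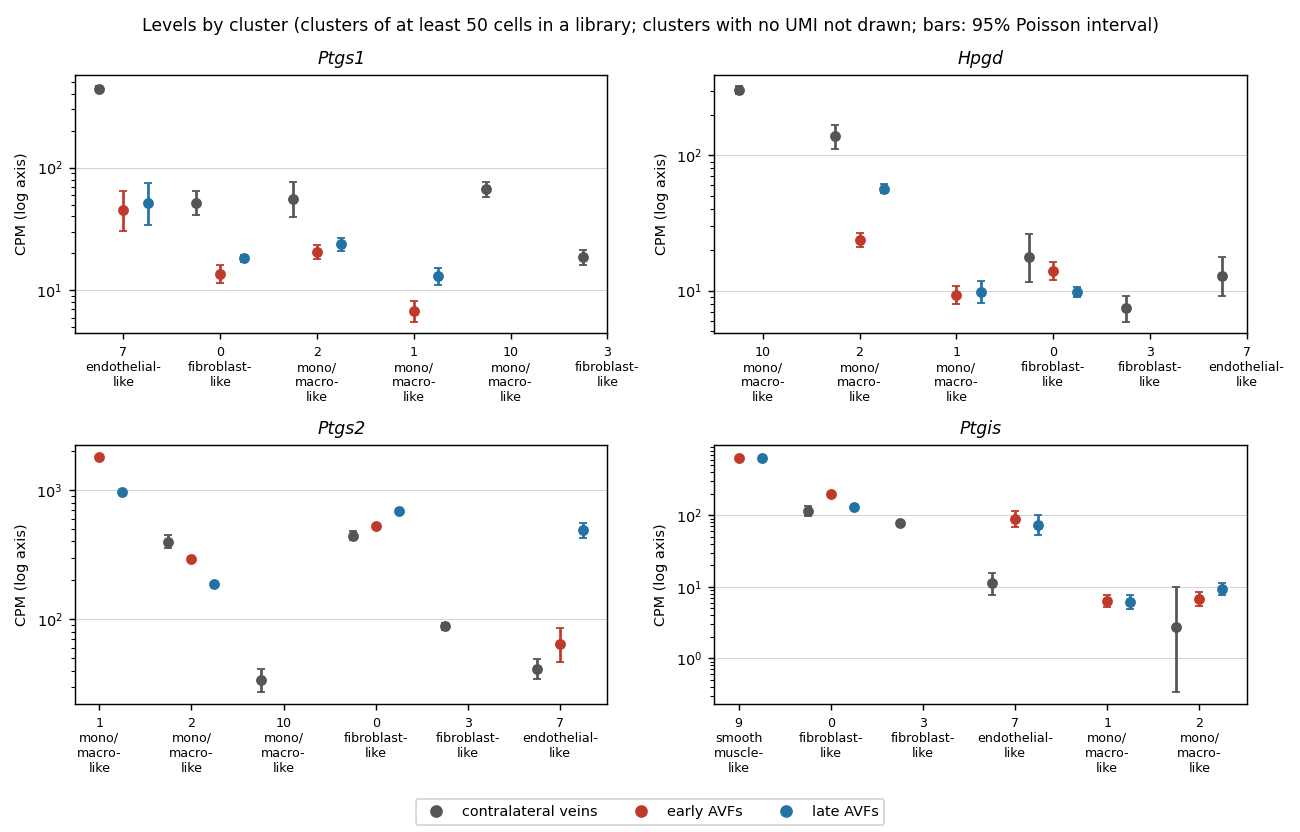
Levels of Ptgs1, Hpgd, Ptgs2 and Ptgis in single clusters of the 3 single-cell libraries, as CPM on a log axis with 95% Poisson intervals, for clusters with at least 50 cells of a library. Ptgs1 in cluster 7 and Hpgd in cluster 2 (84 cells of veins) were lower in both AVF libraries. Ptgs2 in cluster 0 (106 cells of veins) differed by 1.18 times between early AVFs and veins.

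Ptgis lay mainly in smooth muscle-like and fibroblast-like cells. Smooth muscle-like cells stood at 638 CPM (616 to 660) in early and 644 CPM (630 to 658) in late AVFs and held 54.1% and 54.2% of the Ptgis UMIs of those libraries. Their share of cells was larger in the AVF libraries than in veins. In bulk, 10 smooth muscle markers instead summed to a lower level in AVFs. The medians were 11110 CPM in veins and 1882, 2409 and 3131 CPM in early, mid and late AVFs. The part of this lineage in the bulk Ptgis values was not tested. Fibroblast-like cells were at 83.0 CPM (78.1 to 88.1) in veins, 196 (188 to 205) in early and 132 CPM (129 to 135) in late AVFs, and held 88.1%, 37.9% and 43.4% of the UMIs. In cluster 0 alone the values were 115 (98.4 to 134), 197 (189 to 205) and 132 CPM (129 to 135). Endothelial-like cells were at 11.2 (7.71 to 15.7), 88.8 (67.9 to 114) and 74.5 CPM (53.0 to 102), although erythroid-like cells of early AVFs, which should lack Ptgis, also had 11 UMIs of it, with an interval of 9.96 to 35.7 CPM. In smooth muscle-like cells of late AVFs, 64.8% had both a Ptgs2 and a Ptgis UMI, 68.9% had Ptgs2 and 90.9% had Ptgis. In fibroblast-like cells of late AVFs 56.1% had both. These shares depend on depth, and whether both genes were found together more often than by chance was not tested.

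Ptges lay in fibroblast-like cells of veins, which held 95% of its UMIs at 23.3 CPM (20.8 to 26.1), and of late AVFs, with 88.9% at 34.8 CPM (33.2 to 36.5). In early AVFs mono/macro-like cells held 70.3% of them at 36.8 CPM (34.7 to 39.1), beside 26% in fibroblast-like cells at 33.7 CPM (30.5 to 37.2). These 2 levels overlapped, and fibroblast-like cells were highest with each cell thinned to 1000 UMIs. Mono/macro-like cells were 42.4% of the early cells and fibroblast-like cells 8.69%. Within fibroblast-like cells the ratios to veins were 1.45 (1.24 to 1.69) in early and 1.49 (1.32 to 1.69) in late AVFs. In fibroblast-like cluster 0, which all 3 libraries filled, the order was the other way, with 46.3 CPM (36.0 to 58.7) in the 106 cells of veins, 33.8 (30.5 to 37.3) in early and 34.8 CPM (33.2 to 36.5) in late AVFs, and ratios to veins of 0.729 (0.562 to 0.957) and 0.752 (0.59 to 0.972). In veins mono/macro-like cells were at 0.824 CPM (0.17 to 2.41), and in late AVFs at 7.44 CPM (6.39 to 8.61). Within mono/macro-like cells of early AVFs, cluster 1 was at 60.7 CPM (57.0 to 64.5) and cluster 2 at 4.34 CPM (3.24 to 5.70). Of the 193 mono/macro-like cells of early AVFs with a Ptges UMI, 85.5% also had a Ptgs2 UMI, whereas 12.5% of those with Ptgs2 had Ptges. So the bulk level of Ptges overlapped between veins and AVFs while the lineage that held most of it differed between the single-cell libraries.

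Tbxas1 lay in mono/macro-like cells, which held 80.6%, 93.4% and 88.5% of its UMIs in veins, early and late AVFs. Its level there was 140 CPM (128 to 153) in veins, 68.0 (65.0 to 71.0) in early and 83.5 CPM (79.9 to 87.2) in late AVFs. Cluster 10, the main one of veins, stood at 160 CPM (146 to 176). In cluster 2, with 84 cells of veins, the levels were 77.8 (58.8 to 101), 87.5 (82.2 to 92.9) and 91.5 CPM (86.2 to 97.1). The ratio of early AVFs to veins there was 1.12, with an interval that includes 1. Platelet-like cells were at 144 (113 to 182), 184 (132 to 251) and 148 CPM (70.8 to 272). Over all cells Tbxas1 was at 21.7 CPM from 634 UMIs, 37.8 (36.2 to 39.4) and 23.1 CPM (22.1 to 24.1), so that its level over all cells was higher in early AVFs than in veins while its level within mono/macro-like cells was lower. Ptgds had 4, 7 and 29 UMIs in the 3 libraries.

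Hpgd was a transcript of mono/macro-like cells in the vein library, where they held 83.1% of its UMIs at 263 CPM (247 to 280). In early AVFs these cells were at 16.6 CPM (15.2 to 18.2) and in late AVFs at 33.4 CPM (31.1 to 35.8). Cluster 10 of veins stood at 303 CPM (283 to 324). In cluster 2, Hpgd was at 138 CPM (112 to 168) in the 84 cells of veins, 23.8 (21.1 to 26.7) in early and 56.6 CPM (52.4 to 61.0) in late AVFs. The ratio was 0.173 (0.137 to 0.22) for early AVFs to veins and 2.38 (2.07 to 2.74) for late to early AVFs. Cluster 1 was at 9.34 (7.93 to 10.9) in early and 9.73 CPM (8.04 to 11.7) in late AVFs. The share of mono/macro-like cells with an Hpgd UMI was 41.6% in veins, 10.8% in early and 19.7% in late AVFs at the depths of 2905.5, 13072 and 13409 UMIs, and 19.4%, 1.5% and 3.63% after thinning. Neutrophil-like cells, which came mostly from the early library, had an Hpgd UMI in 0.256% of cells there at a median of 3463 UMIs. Fibroblast-like cells were at 8.54 (7.03 to 10.3), 13.9 (11.9 to 16.2) and 9.64 CPM (8.80 to 10.5), and those of cluster 0 at 17.7, 13.9 and 9.73 CPM.

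**Figure D5:**
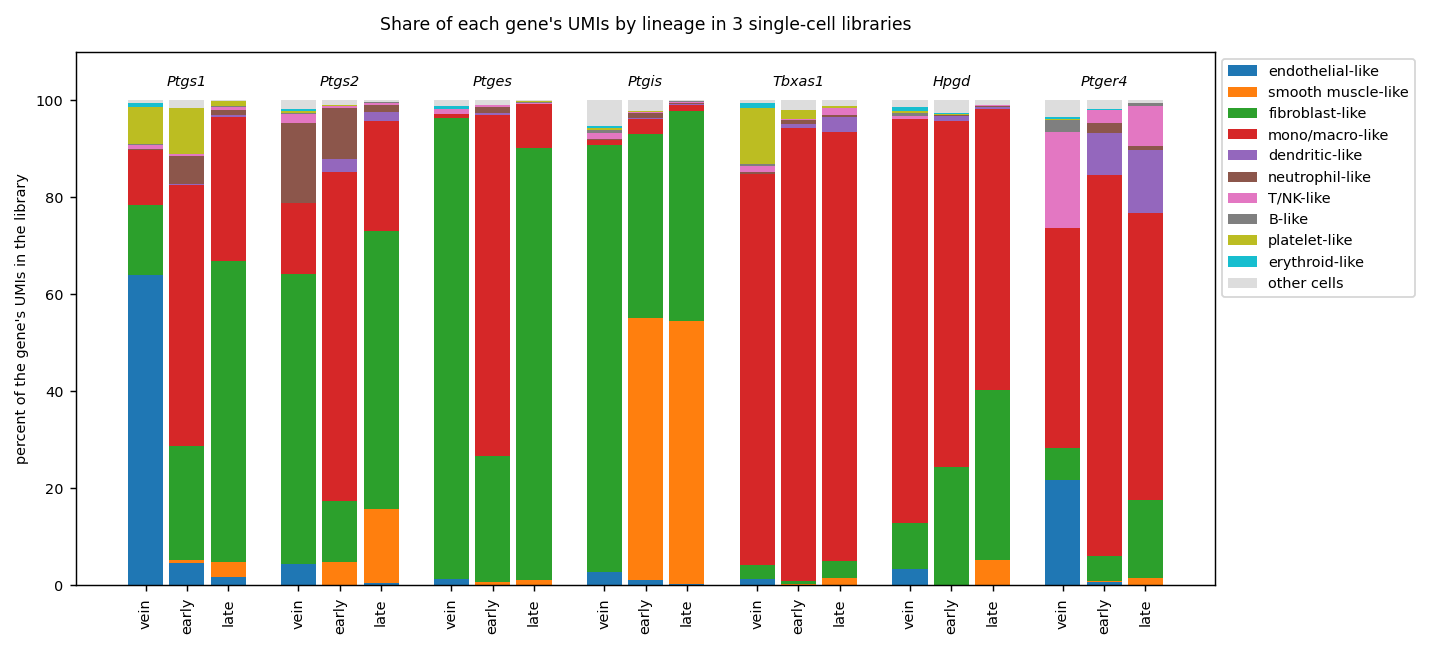
Percent of each gene's UMIs held by 10 lineages and by other cells in the vein, early AVF and late AVF libraries, for 7 members. Endothelial-like cells held 63.9% of Ptgs1 in veins and 4.55% in early AVFs, and mono/macro-like cells at least 80.6% of Tbxas1 in each library. The largest share of Ptges lay in fibroblast-like cells of veins and late AVFs and in mono/macro-like cells of early AVFs. These shares also depend on how many cells of each lineage a library held.

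Ptger4 and Ptger2 were found mostly in immune cells. Ptger4 was at 107 CPM (97.0 to 119) in mono/macro-like cells of veins, 67.7 (64.8 to 70.8) in early and 76.6 CPM (73.2 to 80.2) in late AVFs, at 119 (104 to 136) and 146 CPM (132 to 161) in dendritic-like cells of early and late AVFs, and at 58.8 (50.3 to 68.3), 51.7 (40.0 to 65.8) and 61.4 CPM (54.2 to 69.3) in T/NK-like cells. In endothelial-like cells it was at 64.1 (55.3 to 73.9) in veins and 23.3 CPM (13.3 to 37.8) in early AVFs, and no UMI was found in the 89 cells of late AVFs, where 3 counts would make 5.73 CPM. Ptger2 was sparse, at 21.1 CPM (13.9 to 30.8) in T/NK-like and 17.9 CPM (13.6 to 23.1) in neutrophil-like cells of early AVFs, and at 8.12 CPM (7.11 to 9.23) in mono/macro-like cells there. Smooth muscle-like cells had 1 Ptger2 UMI in each AVF library. Ptger3 had 29, 36 and 52 UMIs in the veins, early and late AVFs, of which fibroblast-like cells held 31%, 52.8% and 88.5%. No order of lineages was read from it.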

How the data were processed

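Bulk RNA sequencing of 25 single vessels and single-cell sequencing of 3 pools of vessels were used as raw counts, deposited by the authors per gene and library and per gene and cell barcode (UMI counts, not normalized). The submitters' processing notes name STAR, Cell Ranger, GRCm38 and mm10, and a matrix header names Cell Ranger 6.0.2. Which counter and strand setting made the bulk counts is not given in the sources used here. No column was left without a sample, and groups came from the labels. The labels name no batches for the bulk libraries, so p-values measure the spread between these libraries. Each single-cell title carries a different date-like string, so that a run and a group cannot be told apart there.

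Bulk counts were fitted in R 4.3.3 with edgeR 4.0.16 (quasi-likelihood F test, TMM, 1 mean per group over all 25 libraries, Benjamini-Hochberg adjustment over all genes tested). The test covered genes whose DESeq2-normalized counts averaged 100 or more, and calls needed an adjusted p under 0.01 with a fold change of 1 or more in size on the log2 scale. SE is the fold change divided by the square root of F. On data simulated for early AVFs against veins over 12673 genes, 31% of genes changed by a log2 of 2 and 56% of those changed by 3 were recovered, with 0 false calls, so that an uncalled member may have changed. Bulk totals were 20254173 to 67457501 counts.

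Barcodes outside 200 to 6000 genes or above 10% mitochondrial counts were left out. The rest were clustered in Python 3.11.15 with scanpy 1.11.5 and leidenalg 0.10.2 on 2000 variable genes, 12 components, 20 neighbours and resolution 0.5. The last rule for naming clusters was set after the clusters were seen. Doublets were kept, since Scrublet's automatic threshold marked 0.479% of the cells. Intervals are 95% exact Poisson intervals.

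The rule for named genes took all 10 members in every comparison, pathway genes called at least once and the 3 genes most like each tested member. Ptgds, not tested, is given by its levels, and members between AVF stages mainly by their range. The members and lists were chosen with earlier results of these data known. Alternatives were DESeq2 1.42.0, another scaling, test, filter and threshold, sex as a term, single sexes, each library left out, and other cell filters, resolution and depth. Promoters are from RefSeq, GRCm38.p6.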

Additional observations from a re-analysis of the deposited data

Results flagged for a closer look

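In 40 sets of a gene and a group, 10 held a library whose gap to the nearest other library was large for the range of its group. The cutoff flags about 1 in 20 sets only where values are normally distributed and sets are independent. Here CPM values included libraries at 0 and the sets shared libraries, so the count of 10 is not a measure of excess over chance. In contralateral veins, Hpgd was at 196.6 CPM in vein 28 against at most 60.43 in the others, and Ptger3 at 139.7 CPM in the same vein against at most 33.02. Vein 632 stood apart in Tbxas1, at 79.19 CPM against at most 25.73, and in Ptger2, at 30.9 CPM against at most 2.518. Both veins were among the 4 with more than 10% of the tested genes at 0. Ptgds was at 2.454 CPM in vein 35 against at most 0.4139 in the other veins, and at 0.05534 CPM in mid AVF 13, below the next at 0.2729.

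Among early AVFs, early 5 was highest in Ptgs1, at 104.1 CPM with the next at 57.23, and in Tbxas1, at 84.83 CPM with the next at 65.85. Early 6 was highest in Ptger2, at 35.1 CPM with the next at 11.97. These 2 libraries had the highest summed level of 8 platelet markers, 9463 and 12760 CPM, against 401.3 to 4154 CPM in the other early AVFs. They were also highest in the summed levels of 10 monocyte and macrophage markers, 9156 and 10590 CPM against 3087 to 5957, and of 10 neutrophil markers, 3788 and 4723 CPM against 359.5 to 3242. The part of these cells in their values was not tested. Early 7 was highest in Ptgs2, at 100.8 CPM with the next at 55.63.

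The early AVF against vein difference of Ptger2 differed between the sexes by -10.54 on the log2 scale (male minus female, edgeR interaction term, adjusted p = 0.00311). It rests on 2 male veins, at 30.9 and 2.518 CPM, and on 5 female veins of which 4 had no count. Sex and the number series of the titles cannot be told apart among the veins.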

How the results depend on the processing

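Of 1044 bulk fold changes under alternatives, 997 kept their direction and side of the threshold, 25 newly passed, 11 no longer passed and 11 changed direction. With DESeq2's Wald test, 5 members were called in early and 4 in mid AVFs, where calls over all tested genes also rose, from 12.6% and 6.05% to 19.3% and 11.2%. At an adjusted p under 0.05 the counts were also 5 and 4, beside 19.9% and 11.2% of all tested genes. Leaving out 1 library at a time gave 3 to 6 members in early, 2 to 4 in mid and 2 to 3 in late AVFs, and 0 between AVF stages. The shares over all tested genes then ran from 10.9% to 14.3%, from 4.21% to 7.49% and from 3.35% to 6.99%. Vein 632 gave the upper counts, 6 in early and 4 in mid AVFs, through Ptgs2, Tbxas1 and, in early AVFs, Ptger2, beside 13.8% and 7.09% of all tested genes. Without early 5, Hpgd in mid AVFs was also called (Hpgd -1.78, adjusted p = 0.00906). With female libraries alone, Ptgis and Ptger2 were called higher at each stage and Ptgs1 and Hpgd were not called, which made 2 members beside 2.9%, 1.78% and 1.61% of all tested genes. The following sets of left-out bulk libraries were chosen after seeing the data. With male libraries alone, 0 members were called against the vein at each stage, beside 8.23%, 2.15% and 1.73% of all tested genes, so that the mid and late counts are near that background. There 6 values changed direction: Ptger2 to -1.38, -1.58 and -2.19 in early, mid and late AVFs, Tbxas1 to -0.31 in mid and -0.55 in late, and Ptges to -0.35 in late AVFs. Without the 4 veins of most genes at 0, 5 members were called in early and 4 in mid AVFs, beside 17.9% and 9.97% of all tested genes, while Ptger4 changed to -0.32 in early and -0.20 in mid and Ptges to -0.14 in mid and -0.30 in late AVFs, and Ptges in early AVFs moved to -0.73 (adjusted p = 0.0423), not past the threshold. Leaving out 1 library moved Ptges in early AVFs from -0.39 to 0.0032, the latter without vein 31. The cause was not tested. Without early 5 and 6 the 3 calls of early AVFs stayed. Of the 27 places for the 3 genes most like each tested member, 1 held a gene also chosen by Spearman's rho. The median log2 fold change of all genes in early AVFs was -0.0067, and 0.195 with edgeR's filterByExpr and 0.509 with no filter. Of 105 single-cell levels under another mitochondrial limit, resolution or doublet setting, 87 stayed within their counting interval, and 32 of 35 shares of cells moved on thinning. Scrublet's own calls were not used as an alternative, and leaving out the highest scores was added after seeing the data. No paired analysis was possible because the groups share no replicate numbers. Missing counts in the veins limit the low genes, and 1 single-cell library a group limits all single-cell comparisons.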
